A study of Macaca mulatta with 4 samples.

Results

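The genes described here encode nuclear subunits of the mitochondrial oxidative phosphorylation complexes, measured in the prefrontal cortex of young rhesus macaques. They were chosen by name alone: rows called NDUFA, NDUFB, NDUFC, NDUFS or NDUFV with a digit, UQCR, COX4 to COX8 or ATP5, together with SDHA, SDHB, SDHC, SDHD and CYC1. The assembly factor names that start with NDUFAF were left out, as were ATP5S and ATP5SL. This gave 76 of 33618 genes in the table: 36 of complex I, 4 of complex II, 6 of complex III, 15 of complex IV and 15 of complex V. NDUFA4 and its paralog NDUFA4L2 were counted with complex IV, because NDUFA4 purifies with that complex. Under the filter on low counts, 72 of the 76 were tested, and the 4 that were not are isoforms of complex IV.

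RNA was sequenced from wild-type animals in 4 libraries, 2 per group and numbered 2 and 3 in each. The sevoflurane animals breathed the inhaled anaesthetic at about 2.5 to 3% for 4 hours on each of 3 occasions, the first near postnatal day 7 and the later ones 14 and 28 days later, and cortex was collected at the end of the last exposure. The control label gives no agent, and how these animals were handled is not stated in the sources read. Whether libraries of a group came from separate animals is not stated either, so that p-values measure the spread between these libraries, which may be technical.

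Oxidative phosphorylation passes electrons from NADH (through complex I) and succinate (through complex II) to ubiquinone, then through complex III and cytochrome c to complex IV, which reduces oxygen. Complexes I, III and IV pump protons, and the ATP synthase, complex V, makes ATP as protons flow back. Neurons draw most of their ATP from this pathway. Complex I is also of interest for anaesthesia: mice without Ndufs4 are known to be hypersensitive to volatile anaesthetics. All complexes but complex II combine nuclear subunits with subunits made from mitochondrial DNA.

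Library totals lay between 7793757 (control replicate 3) and 11706115 counts (sevoflurane replicate 3). Control replicate 3 stood apart on the first principal component, at 59.56 against -3.12 for control replicate 2, and several results are therefore also given without it. All 11 neuron markers were detected, among them SLC17A7 of excitatory neurons with 8338 to 13847 counts. This goes with brain tissue, but it was not a test of the cortical region. Of 7 striated muscle markers in the table, CKM, MYL2 and MB are listed at 0 in every library, while TNNT1 had 82 to 161 counts, ACTA1 31 to 63, TNNC2 14 to 30 and TNNT3 0 to 4.

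The median change in RNA of these subunits between control and sevoflurane cortex was small, but whether their levels were equal was not tested. None of the 72 tested members was called by edgeR's quasi-likelihood test (an adjusted p under 0.05, by Benjamini and Hochberg's method across the whole table), where 0.599% of all 17693 tested genes were called (0.0622% higher and 0.537% lower). Also 0 members were called by DESeq2, where the background was 1.98% of the 13919 genes given an adjusted p, and 0 by limma-voom, where it was 0.622%. DESeq2 gave no adjusted p for some members, among them COX7AH, COX7A2L and NDUFA4L2. At an unadjusted p under 0.05 there were 4 members by edgeR (NDUFA5 higher, and NDUFS7, NDUFB7 and ATP5G2 lower), 3 by DESeq2 and 3 by limma-voom. By edgeR, 4 of 72 is 5.56%, beside 9.92% of all tested genes. The members' count depended on which library was left out, and the difference between the shares was not tested. Sizes are given as the log2 fold change, here called the log2 ratio of sevoflurane to control, and its median over the members was 0.01 (range -0.82 to 1.0), and that of all tested genes was -0.00. Of the members 37 had positive and 35 negative values. For 28 (38.9%) the groups did not overlap, 12 with both sevoflurane libraries higher and 16 with both lower, beside 41.2% of all tested genes.

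How large a change the data could still hide is given by the intervals. For 58 of the 72 members (80.6%) the 95% interval of the log2 ratio lay wholly within a 2-fold change either way, as it did for 62.4% of all tested genes. For 23 it lay within 0.5 either way. The median half-width of the interval was 0.42 for the members and 0.53 for all genes. The 14 members whose interval reached past 2-fold included the scarcely counted rows NDUFA1 (-1.84 to 1.13), NDUFA3 (-0.48 to 2.48) and COX7AH (-2.35 to 0.71). Better counted members were also among them: NDUFA5 (0.33 to 1.35, 146 to 483 counts), NDUFS7 (-1.04 to -0.05, 284 to 361 counts) and ATP5I (-1.10 to 0.09, 236 to 313 counts).

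**Figure D1:**
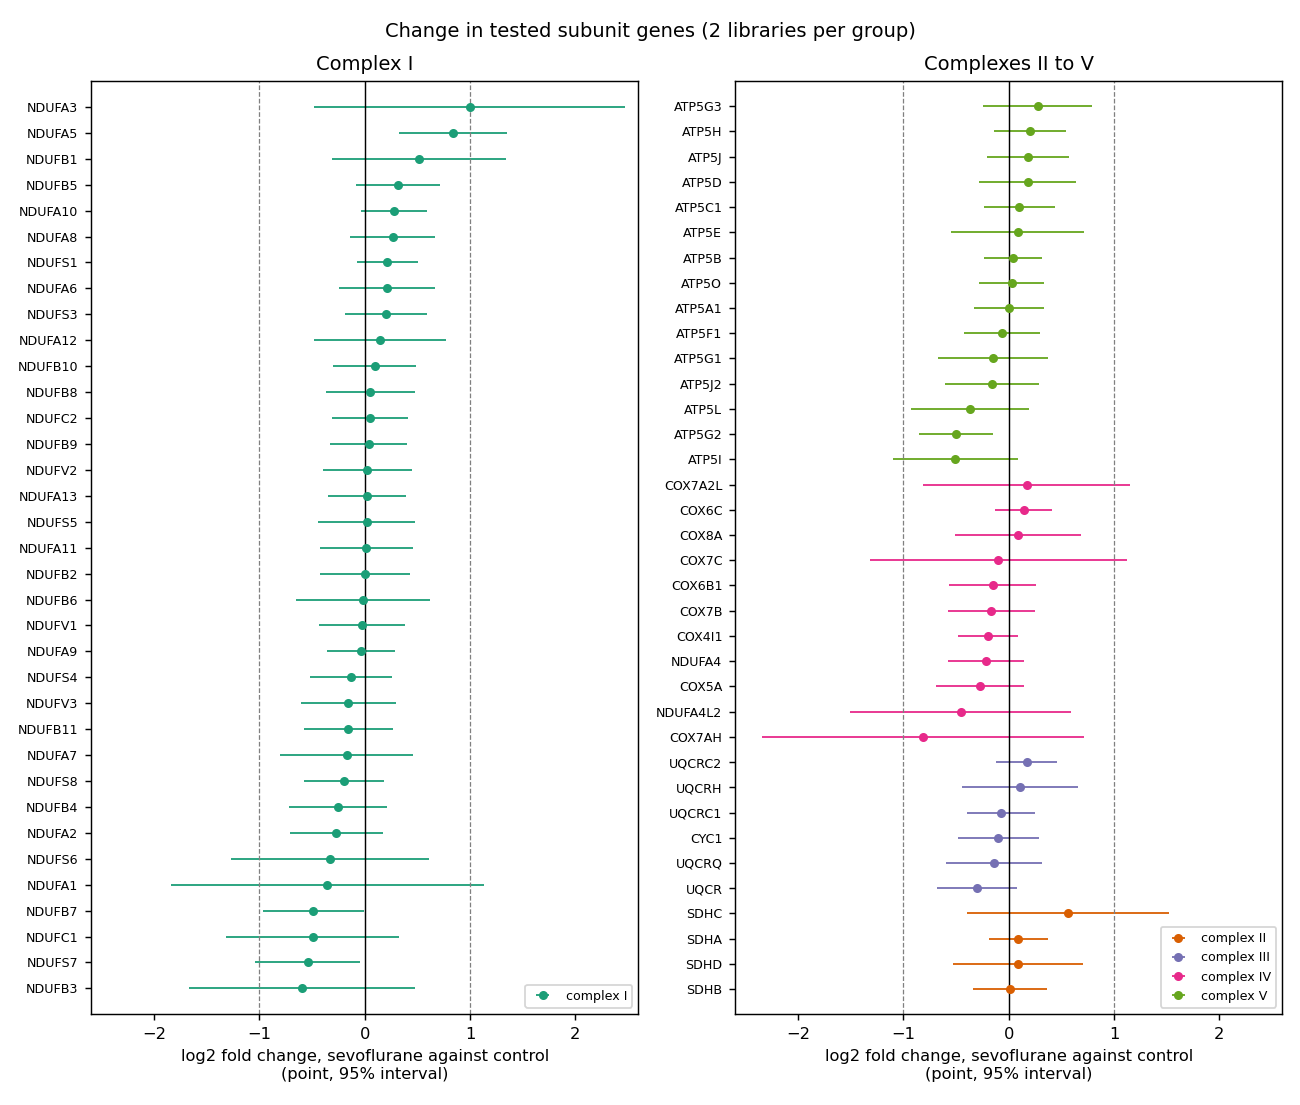
Log2 fold change (x axis, sevoflurane against control) of 71 of the 72 tested subunit genes (y axis), with its 95% interval, coloured by complex. Dashed lines mark a 2-fold change; 57 of the intervals drawn lie between them, and NDUFA5 has the highest value among genes whose interval excludes 0.

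**Figure D2:**
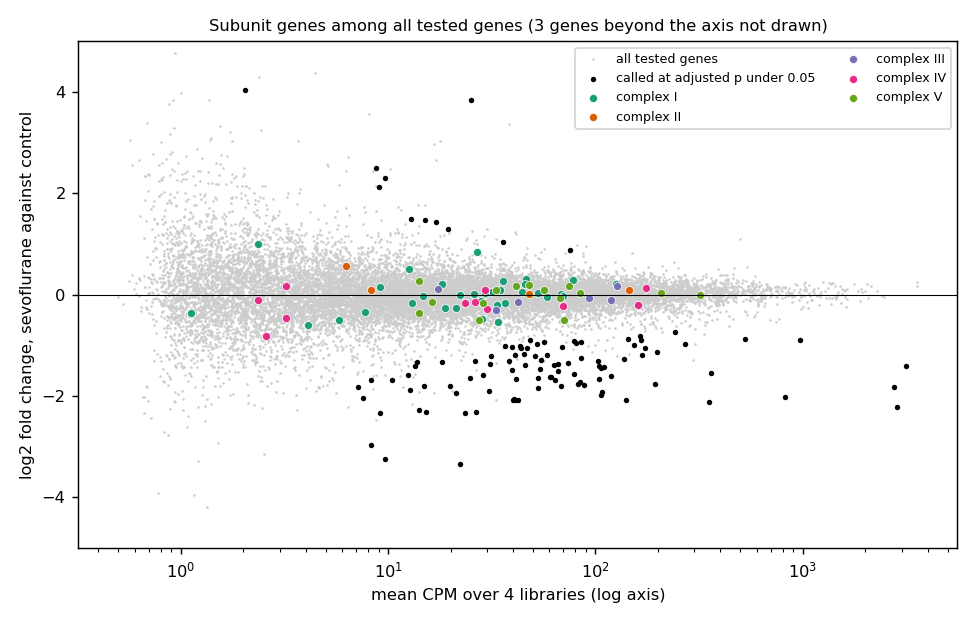
Log2 fold change (y axis) against the mean level over the 4 libraries (x axis, CPM, log axis) for all 17693 tested genes in grey, the 106 called genes in black and 71 of the subunit genes coloured by complex. No subunit gene is among the called genes.

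The summed level of the members differed between the 2 control libraries and overlapped between the groups. Of the 72 members, 55 (76.4%) were higher in control replicate 3 than in control replicate 2, compared with 49.2% of all tested genes. The sum over the members was 3257 CPM (counts scaled to library size with TMM factors) in control replicate 2 and 3727 CPM in control replicate 3. Both sevoflurane libraries lay between these, at 3621 CPM in replicate 2 and 3411 CPM in replicate 3. Between the control libraries a member differed by a median of 0.26 on the log2(CPM + 0.5) scale, and between the sevoflurane libraries by 0.13. All tested genes also differed more between the control libraries (0.28) than between the sevoflurane libraries (0.18). Without control replicate 3 the median log2 ratio of the members was 0.11, and without control replicate 2 it was -0.12, so its sign depended on which control library was kept.

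**Figure D3:**
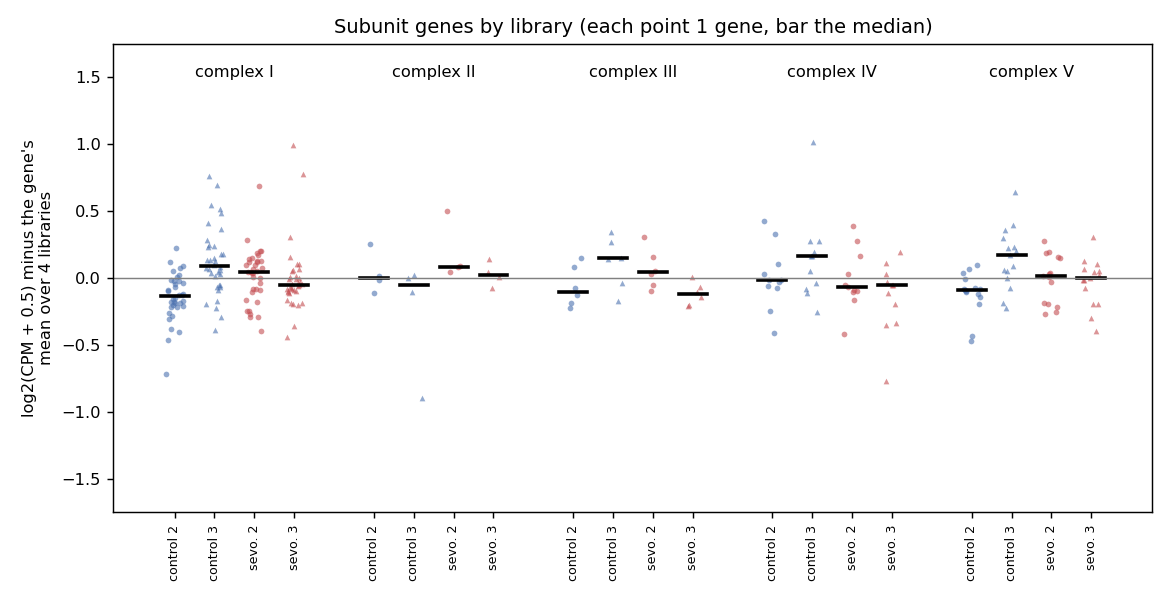
Deviation of each subunit gene from its own mean over the 4 libraries (y axis, log2(CPM + 0.5)) by complex and library (x axis); each point is 1 gene and each bar the median. In complexes I, III and V the median is lowest or next to lowest in control replicate 2 and highest in control replicate 3 (-0.14 and 0.09 for complex I).

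Complex I takes electrons from NADH and hands them to ubiquinone. None of its 36 tested subunits was called. The median log2 ratio was 0.02, and both sevoflurane libraries lay above both controls for 7 subunits and below both for 8, where 20.8% and 20.4% of all tested genes did so. The summed level was 1134 and 1294 CPM in controls (values here and in what follows are in the order replicate 2, replicate 3) and 1304 and 1235 CPM after sevoflurane, so the groups overlapped.

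The 7 nuclear core subunits of complex I, which carry the flavin and the iron-sulfur clusters, did not share a direction. NDUFS1, which holds iron-sulfur clusters in the matrix arm, had 121 and 111 CPM in controls and 138 and 131 CPM after sevoflurane, a log2 ratio of 0.22 (SE 0.13, 95% interval -0.07 to 0.51, adjusted p = 0.656). Both sevoflurane values lay above both controls, but the gene did not pass the test.

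NDUFS7, the core subunit that carries the last iron-sulfur cluster before ubiquinone, went the other way. It had 33.1 and 47.2 CPM in controls and 30.8 and 24.1 CPM after sevoflurane. The groups did not overlap, with a log2 ratio of -0.54 (SE 0.22, 95% interval -1.04 to -0.05, unadjusted p = 0.0349, adjusted p = 0.452). This ratio became -0.27 without control replicate 3 and -0.78 without control replicate 2. NDUFS8, a further iron-sulfur subunit, had -0.20, NDUFS3 0.20, and the NADH-binding NDUFV1 and its partner NDUFV2 had -0.02 and 0.03.

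Among the 29 accessory subunits of complex I, which surround the core, the median log2 ratio was 0.01. NDUFA5, an accessory subunit of the matrix arm, had the smallest p of all members. Its level was 19.1 and 19.4 CPM in controls and 41.3 and 27.5 CPM after sevoflurane. The controls were nearly equal and both sevoflurane libraries were higher, though far from each other. The log2 ratio was 0.84 (SE 0.23, 95% interval 0.33 to 1.35, unadjusted p = 0.00478, adjusted p = 0.204), and the gene was not called. It was called when sevoflurane replicate 3 was left out (log2 ratio 1.10, adjusted p = 0.019) and when the replicate number was added to the model as a block (0.82, adjusted p = 0.0173). Without sevoflurane replicate 2 it had 0.51 (adjusted p = 0.999).

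NDUFB7, an accessory subunit on the intermembrane side, had 27.2 and 38.9 CPM in controls and 22.8 and 24.2 CPM after sevoflurane. The groups did not overlap, but the gap was smaller without control replicate 3: the log2 ratio was -0.49 (SE 0.21, unadjusted p = 0.0464, adjusted p = 0.493) with it and -0.21 without it. NDUFS4, the accessory subunit named above for its mouse knockout, had 29.7 and 28.6 CPM in controls and 26.3 and 27.0 CPM after sevoflurane. Its log2 ratio was -0.13 (SE 0.17, 95% interval -0.52 to 0.26, adjusted p = 0.881). NDUFA10 (0.28, adjusted p = 0.574) and NDUFB5 (0.32, adjusted p = 0.636) also had both sevoflurane libraries above both controls.

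**Figure D4:**
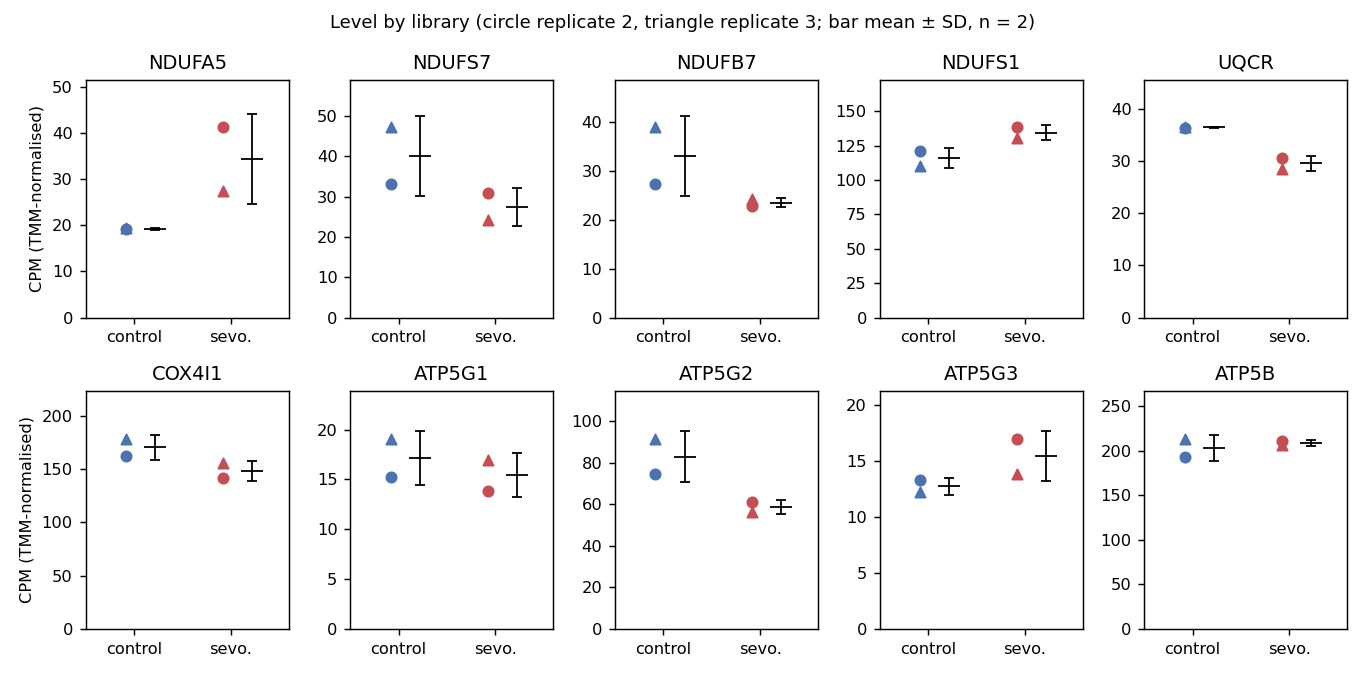
Level of 10 subunit genes (y axis, TMM-normalised CPM, from 0) in control and sevoflurane libraries (x axis), with circles for replicate 2, triangles for replicate 3 and bars for the mean ± SD of 2 libraries. NDUFA5 is at 19.1 and 19.4 CPM in controls and 41.3 and 27.5 CPM after sevoflurane, whereas ATP5B, a subunit of the ATP synthase head, overlaps between the groups.

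Complex II, succinate dehydrogenase, is both a citric acid cycle enzyme and an entry point for electrons, and all its subunits are nuclear. None of the 4 was called, and the median log2 ratio was 0.09. SDHA, the flavoprotein that oxidises succinate, had 134 and 146 CPM in controls and 149 CPM in each sevoflurane library, a log2 ratio of 0.09 (SE 0.12, 95% interval -0.19 to 0.37, adjusted p = 0.887). SDHB, its iron-sulfur partner, had 0.01 (SE 0.16, adjusted p = 0.986). SDHC, a membrane anchor, had 7.12 CPM in control replicate 2 but 2.92 CPM in control replicate 3, and 8.54 and 6.53 CPM after sevoflurane. Its groups overlapped, and its log2 ratio of 0.56 (SE 0.43, adjusted p = 0.748) became 0.08 without control replicate 3 and 1.36 without control replicate 2. SDHD, the other anchor, had 0.09 (SE 0.27, adjusted p = 0.956). Without control replicate 3 SDHA had 0.15 and SDHD 0.03, and without control replicate 2 SDHA had 0.02 and SDHD 0.15.

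Complex III passes electrons from ubiquinol to cytochrome c. None of its 6 subunits was called, and the median log2 ratio was -0.08, with 0.10 without control replicate 3 and -0.24 without control replicate 2. UQCR, a small subunit that RefSeq now names UQCR11, had 36.4 and 36.5 CPM in controls and 30.6 and 28.5 CPM after sevoflurane. The groups did not overlap, with a log2 ratio of -0.30 (SE 0.17, 95% interval -0.68 to 0.07, adjusted p = 0.628). UQCRC2, a core protein, had 116 and 123 CPM in controls and 141 and 128 CPM after sevoflurane, a log2 ratio of 0.17 (SE 0.13, adjusted p = 0.749). Both genes thus had opposite signs within 1 complex, and neither passed the test. UQCRQ (-0.14), UQCRH, the hinge protein (0.11), UQCRC1 (-0.07) and CYC1, cytochrome c1 (-0.10), had overlapping groups.

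Complex IV, cytochrome c oxidase, has nuclear subunits that surround a mitochondrially encoded core and tune its activity. It had the lowest median of the 5 complexes, at -0.16 over 11 tested members, none of which was called. For 5 of the 11 both sevoflurane libraries lay below both controls, where 20.4% of all tested genes did, and for 1, COX6C, they lay above. The difference between complexes was not tested. The median of complex IV stayed negative with each library left out, from -0.21 without sevoflurane replicate 2 to -0.04 without control replicate 3.

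COX4I1, the ubiquitous form of the regulatory subunit that binds ATP, had 162 and 179 CPM in controls and 142 and 155 CPM after sevoflurane. The groups did not overlap, with a log2 ratio of -0.20 (SE 0.13, 95% interval -0.48 to 0.09, adjusted p = 0.691). COX5A, a subunit at the matrix face, had 29.7 and 36.3 CPM in controls and 28.4 and 26.0 CPM after sevoflurane (-0.27, SE 0.19, adjusted p = 0.706). NDUFA4 had 65.5 and 83.9 CPM in controls and 64.8 and 63.8 CPM after sevoflurane (-0.21, SE 0.16, adjusted p = 0.746). COX7B (-0.16) and COX6B1 (-0.15) completed the 5. Without control replicate 3 the log2 ratio was -0.03 for NDUFA4, -0.06 for COX6B1, -0.12 for COX5A, -0.13 for COX4I1 and -0.19 for COX7B, and without control replicate 2 that of NDUFA4 was -0.39 and that of COX5A -0.42. COX6C had 168 and 165 CPM in controls and 178 and 189 CPM after sevoflurane (0.14, SE 0.12, adjusted p = 0.781), and COX8A had overlapping groups (0.09).

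Several complex IV subunits exist as tissue forms. COX4I2, the form found in lung and in vessel-associated cells, had 3 and 5 counts in controls and 13 and 7 after sevoflurane, too few for the test. COX6A2, the heart and muscle form, had 0, 0, 0 and 1 counts, and COX7B2 had 3, 0, 7 and 0. COX6B2, a testis form, had 0 counts in every library, which allows a level of up to 0.255 to 0.398 CPM (3 counts per library, counting error alone). COX7AH, named COX7A1 in RefSeq and known as the heart and muscle form, had 1.56 and 5.04 CPM in controls and 2.56 and 1.10 CPM after sevoflurane. Its log2 ratio of -0.82 (SE 0.68, adjusted p = 0.772) became 0.23 without control replicate 3 and -1.46 without control replicate 2. NDUFA4L2, a paralog induced by hypoxia in many cells, had 4.39 and 3.05 CPM in controls and 2.22 and 3.22 CPM after sevoflurane (-0.46, SE 0.46, adjusted p = 0.827), and without control replicate 2 its log2 ratio was -0.16. COX7A2L, which helps to join complexes III and IV, had 0.17 (SE 0.44, adjusted p = 0.944).

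Complex V, the ATP synthase, joins a catalytic head to a proton-driven ring. None of its 15 subunits was called, and the median log2 ratio was 0.03. All 5 subunits of the F1 head had values between 0.00 and 0.18, with overlapping groups. ATP5A1, the alpha subunit, had 299.8 and 336 CPM in controls and 361 and 277 CPM after sevoflurane, so that the sevoflurane values enclosed the controls. ATP5B, the catalytic beta subunit, had 193 and 214 CPM in controls and 211 and 206 CPM after sevoflurane, a log2 ratio of 0.04 (SE 0.12, 95% interval -0.24 to 0.31, adjusted p = 0.956). The 4 subunits of the peripheral stalk had a median of 0.10, and of these ATP5H (0.20, adjusted p = 0.749) was the one whose groups did not overlap.

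The ring is built from the c subunit, which ATP5G1, ATP5G2 and ATP5G3 encode as the same mature protein with different targeting peptides. ATP5G2 had 74.3 and 91.5 CPM in controls and 60.8 and 56.3 CPM after sevoflurane. The groups did not overlap, with a log2 ratio of -0.50 (SE 0.16, 95% interval -0.85 to -0.15, unadjusted p = 0.0108, adjusted p = 0.293), and it was -0.34 without control replicate 3. ATP5G3 had 13.3 and 12.2 CPM in controls and 17.0 and 13.8 CPM after sevoflurane, higher in both (0.27, SE 0.23, adjusted p = 0.777). ATP5G1 had overlapping groups (-0.15, SE 0.23, adjusted p = 0.901).

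Of all counts on the 3 ring genes, ATP5G2 held 72.3% and 74.5% in controls and 66.4% and 64.7% after sevoflurane. ATP5G3 held 12.9% and 9.94% in controls and 18.5% and 15.9% after sevoflurane. These shares did not overlap between the groups, but they were not tested with a model, and an exact permutation test of 2 against 2 libraries gives a two-sided p of 0.333 at the smallest. The 3 small membrane subunits had negative values: ATP5I, subunit e, -0.51 (SE 0.26, adjusted p = 0.598), ATP5L, subunit g, -0.37 (SE 0.25, adjusted p = 0.702), and ATP5J2, subunit f, -0.16 (SE 0.20, adjusted p = 0.873). For ATP5I the value without control replicate 3 was -0.03, and this library alone was high, at 41.5 CPM beside 23.0 CPM in control replicate 2 and 22.04 and 23.1 CPM after sevoflurane.

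The mitochondrially encoded partners could not be set beside the nuclear subunits. All 13 of their genes are in the table and are listed at 0 in every library, and no level is read from this, since every cell uses them. NDUFAB1, the acyl carrier protein of complex I, is also listed at 0. Low counts on NDUFA1, with 11 or 12 in each library, and on the row named COX7C, with 14 to 34, are uncertain, since it is not stated how reads that match near-identical copies were counted.

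Other genes of the pathway were looked at in lists, and no member of any list was called. Cytochrome c and other partners outside the name rule had a median of -0.16 over 5 tested genes. CYCS, cytochrome c itself, had 58.5 and 67.4 CPM in controls and 84.7 and 85.2 CPM after sevoflurane. Both sevoflurane libraries were higher, but the log2 ratio of 0.43 (SE 0.14, 95% interval 0.11 to 0.76, unadjusted p = 0.0144, adjusted p = 0.324) did not pass. The 40 tested assembly factors had a median of 0.06, and the smallest p was that of LYRM7, a complex III assembly factor (0.55, SE 0.30, adjusted p = 0.623), which had 0.20 without control replicate 3 and 1.06 without control replicate 2. The 76 mitochondrial ribosomal proteins, which translate the mitochondrially encoded subunits, had a median of 0.00, with MRPL42 at 0.52 (SE 0.17, adjusted p = 0.299).

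Upstream of the chain, the 18 genes of the citric acid cycle and pyruvate dehydrogenase had a median of 0.05. DLD, the dehydrogenase shared by several of these enzymes, had 0.36 (SE 0.14, adjusted p = 0.448). The 15 regulators of mitochondrial biogenesis had a median of 0.03. PPARGC1A, their best known coactivator, had 49.6 and 52.1 CPM in controls and 56.4 and 56.9 CPM after sevoflurane (0.16, SE 0.15, adjusted p = 0.81), and the related PPRC1 had -0.35 (SE 0.16, adjusted p = 0.505). Transport across the mitochondrial membranes had a median of 0.06 over 15 genes. UCP2, an uncoupling protein of the inner membrane, had 16.4 and 20.4 CPM in controls and 9.995 and 10.8 CPM after sevoflurane (-0.82, SE 0.23, unadjusted p = 0.0061, adjusted p = 0.232).

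Glycolysis and lactate transport had the highest median of these lists, 0.17 over 21 genes, of which 17 were positive. Its summed level overlapped between the groups, at 4771 and 6349 CPM in controls and 5839 and 5637 CPM after sevoflurane. Between the controls, 17 of the 21 genes were higher in replicate 3 than in replicate 2. Both sevoflurane libraries lay above both controls for 8 of the 21, where 20.8% of all tested genes did. At an unadjusted p under 0.05 by edgeR there were 5 of the 21 (23.8%), all higher, beside 9.92% of all tested genes. PGAM1, a glycolytic mutase, had 62.6 and 61.5 CPM in controls and 84.0 and 98.2 CPM after sevoflurane (0.55, SE 0.15, unadjusted p = 0.0041, adjusted p = 0.193). PDK4, the pyruvate dehydrogenase kinase, which is in none of these lists, rose (log2 ratio 1.5, SE 0.24, adjusted p = 0.0322). It was not called with no filter (adjusted p = 0.0639) or without control replicate 3 (0.0605).

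In bulk tissue, fewer cells of a type and less RNA per cell cannot be told apart, and markers of some cell types moved with the groups. All 10 oligodendrocyte markers were lower and called, with a summed level of 9316 and 14732 CPM in controls and 2428 and 3623 CPM after sevoflurane. Of 7 astrocyte markers 1, GFAP, was called lower, and the sum was 7596 to 9346 CPM in controls and 5461 to 5584 CPM after sevoflurane. Without GFAP, an omission made after the values were seen, the sums overlapped, at 4097 and 3719.6 CPM in controls and 3930.0 and 3686 CPM after sevoflurane. The other markers split in direction. SLC1A2 (0.06), SLC1A3 (0.06) and ALDH1L1 (0.21) had positive log2 ratios. S100B (-0.76, unadjusted p = 0.00306, adjusted p = 0.168), AQP4 (-0.49, unadjusted p = 0.0198, adjusted p = 0.367) and GJA1 (-0.40, adjusted p = 0.526) were lower in both sevoflurane libraries. Of 7 microglia markers 1, CX3CR1, was called lower, with sums of 310.3 to 348 CPM in controls and 230 to 280.0 CPM after sevoflurane. Without CX3CR1, likewise, the sums overlapped, at 252 and 221 CPM in controls and 186 and 234 CPM after sevoflurane. The complement genes C1QA (0.66, unadjusted p = 0.0152, adjusted p = 0.331) and C1QB (0.67, unadjusted p = 0.0241, adjusted p = 0.391) were higher in both sevoflurane libraries but did not pass the test. The log2 ratio was negative for 5 of the 7 microglia markers. Besides CX3CR1, CSF1R (-0.41, unadjusted p = 0.0328, adjusted p = 0.441), P2RY12 (-0.33) and AIF1 (-0.34) were lower in both sevoflurane libraries, and TMEM119 (-0.89) had overlapping groups. The 11 neuron markers had no call and a median of 0.15, with sums of 7943 and 9773 CPM in controls and 9768 and 9759 CPM after sevoflurane. All 11 log2 ratios were positive. For 3 of the 11 both sevoflurane libraries lay above both controls, where 20.8% of all tested genes did. In control replicate 2 the neuron markers and the subunits were both at their lowest sum. This was not particular to them. The lowest sums of the glycolysis list (4771 CPM), the citric acid cycle list (1345 CPM) and the endothelial markers (163 CPM) were also in that library. The astrocyte and microglia sums were highest there.

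Among vascular and other cells, 1 of 8 meningeal fibroblast markers, SLC6A13, was called higher. All 8 had positive log2 ratios, with a median of 1.12. Their sums overlapped between the groups, at 240 and 124 CPM in controls and 614 and 218 CPM after sevoflurane. No call was made among 6 endothelial (median -0.03), 11 pericyte and smooth muscle (-0.02), 4 red blood cell (0.37) or 3 striated muscle markers (0.43) tested. The part of these shifts in the levels of the subunits was not tested.

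**Figure D5:**
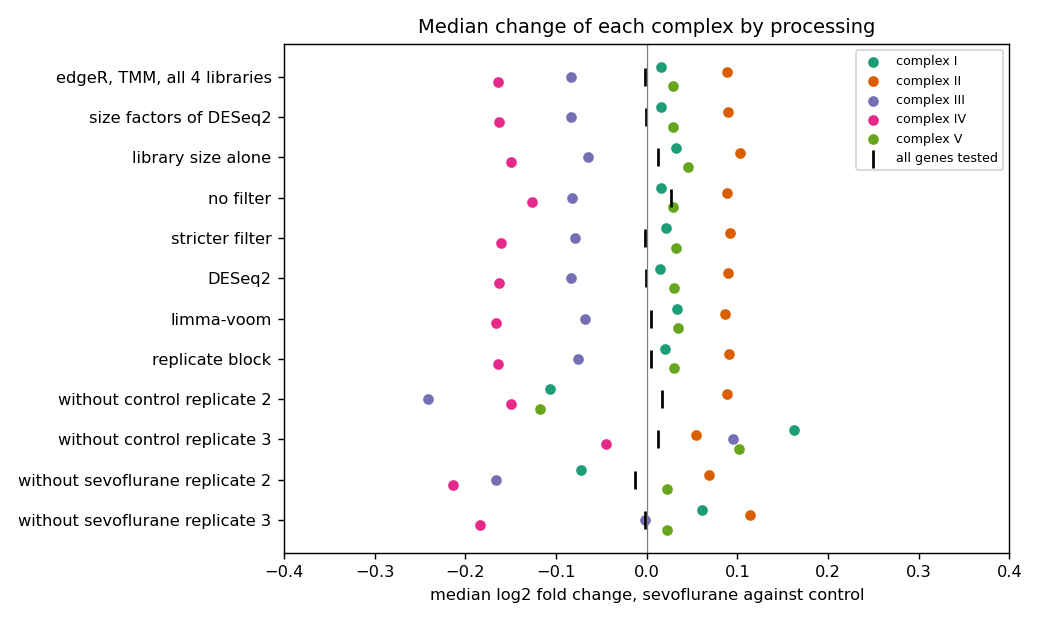
Median log2 fold change of each complex (x axis, sevoflurane against control) under each way of processing (y axis), with a black tick for all tested genes. Scaling, filter and tool move the medians little, whereas leaving out a library moves those of complexes I, III and V across 0; complex IV stays below 0 and complex II above 0 throughout.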

How the data were processed

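The authors deposited raw gene counts, with 1 column for each library. HISAT2 was the aligner, per the submitters' processing notes. The sources read give neither its version nor the counting program, build or annotation, nor how strand and reads with several matches were treated, so that counts of genes with near-identical copies, or overlapping or antisense partners, are uncertain. The analysis used edgeR 4.0.16 in R 4.3.3. Its filter on low counts (10 counts at the median depth, 15 in total) left 17693 of 33618 genes, scaled by TMM. Groups were compared with edgeR's quasi-likelihood test, without covariates, and p-values were adjusted over all tested genes by the Benjamini-Hochberg method. SEs and 95% intervals of log2 ratios come from that test. The edgeR, DESeq2 and limma-voom fits, at their default settings, were run on a simulated count table with known changes, with a pass mark set for edgeR alone. Those changes were larger than most seen in the subunits, so detection of smaller ones was not tested. The remaining runs and the summaries were not tested in this way. Other runs used the size factors of DESeq2, total counts, unfiltered genes, a filter at 1 CPM in 2 libraries with a mean of at least 5 CPM, DESeq2 1.42.0 itself, limma-voom (limma 3.58.1), a replicate block, or 1 library fewer.

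Gene lengths were not used, so levels are compared between libraries within a gene. Symbols were matched to a RefSeq table of assembly T2T-MMU8v2.0 for names alone: 58 members by symbol, 12 by an older symbol and 6 not at all. The values of 1 member are not reported here; it is included in the counts and medians. Members and lists were chosen with earlier results of these data known. The genes named are called members, the 3 smallest p and the highest mean level in each complex, tissue isoforms, the called genes or the smallest p of each pathway list, and PDK4, PPARGC1A, CYCS and NDUFAB1. Any other gene named was chosen after its values were seen.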

Additional observations from a re-analysis of the deposited data

How the results depend on the processing

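All genes called numbered 60 with no filter, 275 by DESeq2 and 511 with the replicate block, beside 106, and 145 to 283 with 1 library left out. The replicate numbers are not stated to pair the libraries, and same-numbered libraries did not deviate together (r = 0.01 across 17693 genes, which are not independent). With the replicate block 1 subunit, NDUFA5, was called, and with 1 library left out 0 to 1; every other alternative called 0. The members' median log2 fold change ran from -0.12 to 0.11 with 1 library left out. Of 393 single-gene values under alternatives, 11 changed sign, none of them called. ATP5A1 had -0.0051 by limma-voom and -0.0071 with the replicate block. With 1 library left out, ATP5A1 ran from -0.20 to 0.18 and COX8A from -0.33 to 0.41 (both negative without sevoflurane replicate 2 or control replicate 2), and UQCRH from -0.18 to 0.35 (negative without sevoflurane replicate 2 or control replicate 3). Likewise UQCRQ ran from -0.41 to 0.17, COX7AH from -1.55 to 0.23 and ATP5G1 from -0.31 to 0.017, each positive without control replicate 3. The cause was not tested. With a library left out, the lone library of its group is assumed to vary like the other group.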

Other observations

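There are 8 rows with a RefSeq gene number in place of a symbol that are named as subunits by the RefSeq table, so the name rule does not reach them. They were added after the data were seen. Of these 8 rows 7 were tested, with a median log2 ratio of -0.05 and no call by edgeR. COX5B, a complex IV subunit listed as LOC707227, had 24.3 and 39.9 CPM in controls and 19.1 and 22.3 CPM after sevoflurane, a log2 ratio of -0.63 (SE 0.25, unadjusted p = 0.0327, adjusted p = 0.441). COX6A1, the ubiquitous partner of COX6A2 and listed as LOC696956, had 101 and 179 CPM in controls and 104 and 95.2 CPM after sevoflurane (-0.49, SE 0.23, adjusted p = 0.535), so that control replicate 3 alone was high. COX7A2 (0.01), UQCRB (-0.05), UQCR10 (-0.08) and UQCRFS1, the iron-sulfur protein of complex III (0.12), had overlapping groups, and COX8C had 0 counts in every library.

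The table holds 2 rows for COX7C. The row with that symbol had 31 and 14 counts in controls and 34 and 20 after sevoflurane. The row LOC106998836, which RefSeq now names COX7C, had 444 and 436 counts in controls and 612 and 688 after sevoflurane, with a log2 ratio of 0.13 (SE 0.18, adjusted p = 0.882).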
